A study of Mus musculus with 4 samples.

Results

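The genes described here encode the core of mTOR signalling and the GSK3 kinases, in leukemia stem cells (LSCs) of a mouse acute myeloid leukemia with and without the ligand B7-H4. They are Mtor, Rictor, Rptor, Mlst8, Tsc1, Tsc2, Rheb, Pdpk1, Gsk3a and Gsk3b, 10 genes chosen by name. All 10 were found among the 27179 genes of the deposited expression table, and all 10 passed the filter on low values, at least 1 RPKM in at least 2 libraries, which 12107 genes passed. The cells came from bone marrow of the strain C57BL/6 and were sorted as YFP+, Mac-1+ and c-Kit+. By genotype there were 2 wild-type and 2 B7-H4-null samples, which otherwise share strain, tissue, sort and library protocol. The oncogene that drives the leukemia, the age of the mice and the number of animals per sample are not given by the sources at hand, so the spread between the 2 samples of a genotype may be technical.

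mTOR is a large protein kinase that works in a pair of complexes. With raptor (Rptor) it forms mTORC1, which drives protein synthesis and restrains autophagy, and with rictor (Rictor) it forms mTORC2, which phosphorylates AKT. mLST8 sits in both complexes. Growth factor signals reach mTORC1 through PDK1 (Pdpk1) and AKT, which switch off the TSC1-TSC2 brake and so free the small GTPase RHEB to activate mTORC1. AKT also switches off GSK3, a constitutively active kinase in paired forms encoded by Gsk3a and Gsk3b, which marks β-catenin, MYC and other proteins for degradation. In blood formation this pathway is known for its control of stem cell quiescence and of leukemia growth. RNA levels do not report the phosphorylation by which most of these proteins are controlled.

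None of the 10 genes differed between genotypes by the test across all genes (limma, adjusted p under 0.05), with 0 higher and 0 lower, where 0.0413% of all tested genes were called higher and 0.0578% lower, 12 in all. That all-gene count was 56 without wild type replicate 1, 29 without wild type replicate 2 and 0 without either B7-H4-null library. Before adjustment, at p under 0.05, 1 of the 10 was called, Gsk3b, in the lower direction, against 7.2% of all tested genes in that direction and 5.05% in the higher. Gsk3b, Gsk3a, Pdpk1 and Tsc2 had both B7-H4-null libraries below both wild-type libraries, 4 of 10, where 28.0% of all tested genes did. No member had both above, where 16.0% of all tested genes did. The remaining 6 genes, which include every dedicated subunit of mTORC1 and mTORC2 in the set, overlapped between genotypes. The median log2 difference (B7-H4-null minus wild type, in log2(RPKM + 1)) was −0.20 over the 10 genes and −0.09 over all tested genes.

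The totals behind the RPKM scaling lay between 9419425 and 10814448 reads per library. The gene deleted by design, Vtcn1, was listed at 0 RPKM in both wild-type libraries and at 0.0405 and 0.0353 RPKM in their B7-H4-null counterparts, below the worth of 1 read in a gene of 2 kb (0.0462 to 0.0531 RPKM), so it cannot check the genotype labels. The sort markers were read in every library, and 2 of the 3 were lower in both null libraries, where 28.0% of all tested genes were. Itgb2 had 212.6 and 212.9 against 123.1 and 146.1 RPKM and Itgam 114.1 and 86.9 against 82.9 and 59.9 RPKM, while Kit, at 24.01 and 7.19 against 11.02 and 9.37 RPKM, differed most between the wild-type replicates. Of the late neutrophil markers 12 of 12 lay lower in both null libraries, where 28.0% of all tested genes did, but 0 passed the test (limma, adjusted p under 0.05; 11 at p under 0.05 before adjustment). Their summed level was 31732 and 24307 RPKM in wild-type cells against 8613 and 12507 RPKM in B7-H4-null cells. Of the immediate early genes 12 of 12 lay higher in both null libraries, where 16.0% of all tested genes did, and again 0 passed (11 before adjustment), with sums of 2313 and 3499 RPKM in wild-type cells against 12344 and 5697 RPKM. Both lists were chosen with earlier results of these data known, so their counts beside the all-gene shares are descriptions and no test. Neither list had a member at 0 in every library. The part of these lists and of the sort markers in the differences below was not tested. Monocyte markers overlapped between genotypes for 4 of 6 and were higher in both null libraries for 2, Ly6c2 among them. They summed to 969 and 1264 RPKM against 1447 and 1793 RPKM, of which Ly6c2 alone gave 843 and 1079 against 1201 and 1458 RPKM. Defining lymphoid and erythroid genes were at or near 0, with Pax5 at 0 in all 4 libraries, although the T and NK list summed to 21.1 to 39.4 RPKM through Nkg7 and the B cell list to 36.3 to 61.4 RPKM through Cd79b. Bulk RNA cannot tell fewer cells of a type from less RNA per cell.

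Promoters of 6 members are shown because they set the genes whose genotypes did not overlap (Gsk3b, Gsk3a, Pdpk1, Tsc2) beside the kinase gene Mtor and its activator Rheb, which overlapped. Each is the 100 bases before an annotated start, 5′ to 3′ on the gene's strand, from RefSeq on GRCm38.p6. Capitals mark matches, on either strand, to CCAAT (the box bound by NF-Y), CCGGAAGT (an ETS-type site) or CACGTG (an E-box).
Gsk3b: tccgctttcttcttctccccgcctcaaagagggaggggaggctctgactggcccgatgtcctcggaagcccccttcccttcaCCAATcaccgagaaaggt
Gsk3a: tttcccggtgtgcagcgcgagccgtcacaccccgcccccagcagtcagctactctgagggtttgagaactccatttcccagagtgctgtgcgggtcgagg
Pdpk1: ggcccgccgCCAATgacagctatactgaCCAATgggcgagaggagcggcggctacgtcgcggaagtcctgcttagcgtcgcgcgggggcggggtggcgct
Tsc2: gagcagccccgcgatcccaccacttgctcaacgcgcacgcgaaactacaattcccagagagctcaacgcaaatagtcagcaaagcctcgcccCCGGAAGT
Mtor: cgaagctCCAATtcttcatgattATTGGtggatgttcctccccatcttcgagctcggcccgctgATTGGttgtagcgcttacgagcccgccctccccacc
Rheb: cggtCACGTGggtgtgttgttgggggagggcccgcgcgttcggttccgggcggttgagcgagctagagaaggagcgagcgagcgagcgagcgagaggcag
The Gsk3b sequence is chr16:38088901-38089000 (+), Gsk3a chr7:25237852-25237951 (−) and Pdpk1 chr17:24141595-24141694 (−), the downstream of the 2 Pdpk1 starts in the RefSeq table. Tsc2 is chr17:24632628-24632727 (−), Mtor chr4:148448482-148448581 (+) and Rheb chr5:24842362-24842461 (−). The gene span given below for Tsc2 ends at 24632676, so part of its stretch lies within that span. The Pdpk1 stretch lies wholly within the span of Pdpk1, which ends at 24155619.

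Over the full promoter windows (250 bases before to 50 after a start), CCAAT or its complement ATTGG occurred in 5 of the 10 members, Gsk3a, Gsk3b, Mtor, Pdpk1 and Rictor, and in 37.4% of all 32851 windows. CCGGAAGT or ACTTCCGG occurred in Mtor and Tsc2 (3.89% of all windows), and CACGTG, its own complement, in Rheb only (7.15%). ATGGCGGC or GCCGCCAT, the core of a YY1 site, occurred in Rictor and Tsc1 (2.24%). A member counted if any of its windows matched, whereas the percentages are over single windows. The window of the upstream Pdpk1 start held none of these motifs. No motif was held by all 4 genes with genotypes apart. A match is a string of letters and does not show binding.

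The GSK3 genes and Pdpk1 showed the widest genotype differences of the set. Gsk3b (gene ID 56637, chromosome 16, 38089001 to 38246084 on GRCm38.p6), the better studied of the GSK3 kinases, had 10.7 and 12.2 RPKM in wild-type cells and 6.88 and 6.85 RPKM in B7-H4-null cells. Both B7-H4-null libraries thus lay well under both wild-type libraries and close to each other. In reads these were 901 and 1002 against 538 and 615. The means, 11.4 ± 1.03 and 6.87 ± 0.0211 RPKM (SD, n = 2), differed 1.66-fold. Its log2 difference was −0.66 ± 0.241 (SE), with a 95% interval of −1.23 to −0.08 (limma, unadjusted p = 0.0307, adjusted p = 0.361). Leaving out each library in turn gave −0.74 to −0.57.

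Gsk3a (gene ID 606496, chromosome 7, 25228258 to 25237851), the other GSK3 gene, had 49.6 and 62.9 RPKM in wild-type cells and 29.9 and 48.2 RPKM in B7-H4-null cells. The groups were apart by a narrow margin, because B7-H4-null replicate 2 came close to wild type replicate 1. Its means were 56.2 ± 9.44 and 39.03 ± 12.9 RPKM (SD, n = 2), with a log2 difference of −0.54 ± 0.312 (SE, 95% interval −1.29 to 0.20, limma adjusted p = 0.544). The difference was −0.21 without the first B7-H4-null library and −0.88 without B7-H4-null replicate 2, so 1 library sets much of its size. In the GENCODE annotation 28.3% of the 2900 exonic bases of Gsk3a overlap exons of 9130221H12Rik on the opposite strand. The library kit does not mark strand, so reads of the 2 genes cannot be told apart there. The length behind the RPKM of Gsk3a came out as 2259 bases, so the share among the counted bases may differ.

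Pdpk1 (gene ID 18607, chromosome 17, 24073680 to 24155619) encodes PDK1, the kinase that phosphorylates the activation loop of AKT and of other AGC kinases. Its levels were 12.8 and 19.5 RPKM in wild-type cells and 10.2 and 11.9 RPKM in B7-H4-null cells. Wild type replicate 2 stood above the other 3 libraries, which lay near each other. The log2 difference was −0.49 ± 0.288 (SE, 95% interval −1.17 to 0.20, limma adjusted p = 0.559), shrinking to −0.20 when wild type replicate 2 was left out and reaching −0.77 when wild type replicate 1 was.

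Tsc2 (gene ID 22084, chromosome 17, 24595816 to 24632676) encodes tuberin, the GTPase-activating protein that switches off RHEB. It had 17.4 and 14.3 RPKM in wild-type cells and 13.8 and 12.3 RPKM in B7-H4-null cells, so the nearest libraries of the genotypes were almost level. After median-ratio scaling or quantile normalization the genotypes overlapped for Tsc2, while Gsk3b, Gsk3a and Pdpk1 stayed apart, 3 of 10 where 22.2% of all tested genes lay below after median-ratio scaling. Its log2 difference was −0.26 ± 0.249 (SE, 95% interval −0.85 to 0.33, limma adjusted p = 0.71). Exons of Pkd1 on the opposite strand overlap 7.2% of its 9620 exonic bases in GENCODE, where the length behind its RPKM was 6147.

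Tsc1 (gene ID 64930, chromosome 2, 28640993 to 28691172) encodes hamartin, which stabilises tuberin. It was the lowest of the 10 genes, at 6.45 and 5.62 RPKM in wild-type cells and 5.77 and 4.42 RPKM in B7-H4-null cells. Here B7-H4-null replicate 1 lay between the wild-type libraries. The log2 difference of −0.21 ± 0.261 (SE) had a 95% interval of −0.84 to 0.41 and did not pass (limma adjusted p = 0.774).

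**Figure D1:**
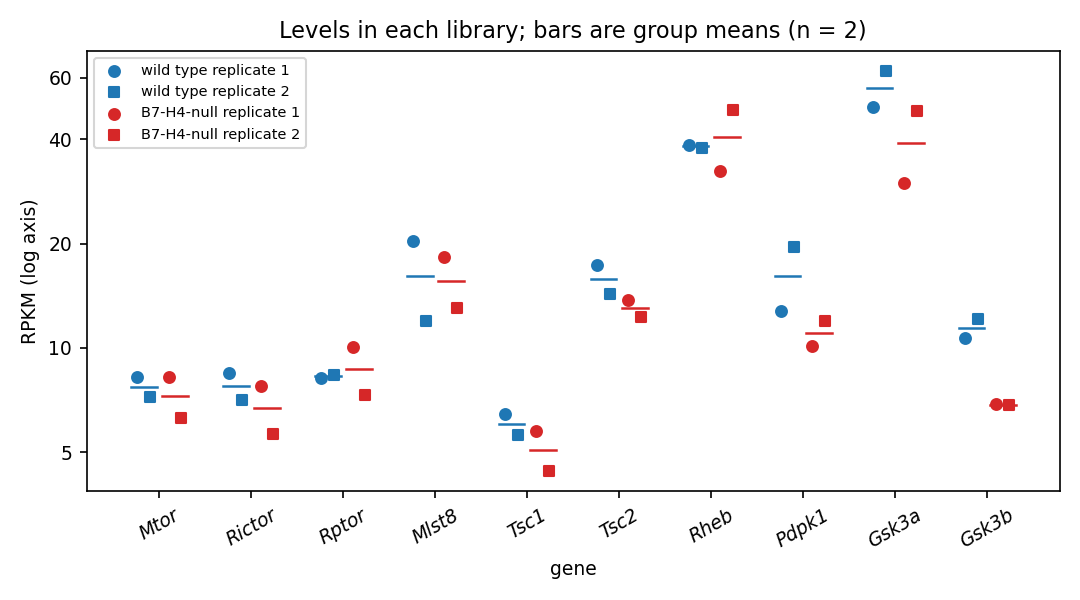
Level of each of the 10 genes in RPKM (log axis) in the 4 libraries, with wild type in blue, B7-H4-null in red, circles for replicate 1, squares for replicate 2 and bars for the mean of each genotype (n = 2). Gsk3b shows 6.88 and 6.85 RPKM in B7-H4-null cells under 10.7 and 12.2 RPKM in wild-type cells, whereas Mtor, Rictor, Rptor, Mlst8, Tsc1 and Rheb overlap.

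Rheb (gene ID 19744, chromosome 5, 24802823 to 24842361), the GTPase that activates mTORC1 directly, went no single way. It had 38.6 and 37.7 RPKM in wild-type cells, against 32.4 and 48.6 RPKM in B7-H4-null cells. The B7-H4-null libraries thus bracketed the wild-type pair, 1 below and 1 above. Its means were 38.1 ± 0.593 and 40.5 ± 11.5 RPKM (SD, n = 2), with a log2 difference of 0.06 ± 0.282 (SE, 95% interval −0.62 to 0.73, limma adjusted p = 0.953). The sign turned to −0.23 without B7-H4-null replicate 2.

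Mtor (gene ID 56717, chromosome 4, 148448582 to 148557685), the catalytic subunit of both complexes, had 8.22 and 7.23 RPKM in wild-type cells and 8.25 and 6.29 RPKM in B7-H4-null cells. The first replicates of the genotypes were level. The log2 difference was −0.08 ± 0.26 (SE), and its 95% interval, −0.70 to 0.53, corresponds to 0.614 to 1.45 times the wild-type level of RPKM + 1 (limma adjusted p = 0.92). Changes within that interval are not excluded by these libraries. Without B7-H4-null replicate 2 the difference was 0.09, and after median-ratio scaling it was 0.0074.

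Rptor (gene ID 74370, chromosome 11, 119602905 to 119899591), the substrate-binding subunit of mTORC1, had 8.18 and 8.38 RPKM in wild-type cells and 10.05 and 7.31 RPKM in B7-H4-null cells. As for Rheb, the B7-H4-null libraries lay on either side of a close wild-type pair, but here replicate 1 was the higher. The log2 difference was 0.05 ± 0.262 (SE, limma adjusted p = 0.959), or −0.16 without B7-H4-null replicate 1.

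Rictor (gene ID 78757, chromosome 15, 6708349 to 6800401), the defining subunit of mTORC2, had 8.45 and 7.07 RPKM in wild-type cells and 7.76 and 5.66 RPKM in B7-H4-null cells. B7-H4-null replicate 2 was the lowest library, and replicate 1 lay within the wild-type range. The log2 difference was −0.19 ± 0.269 (SE, limma adjusted p = 0.808), and it was 0.0053 without B7-H4-null replicate 2.

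Mlst8 (gene ID 56716, chromosome 17, 24473550 to 24479114), the small β-propeller subunit common to both complexes, had 20.3 and 11.9 RPKM in wild-type cells and 18.2 and 13.02 RPKM in B7-H4-null cells. In each genotype replicate 1 was the higher, and the difference between replicates exceeded that between genotypes. The log2 difference was −0.02 ± 0.33 (SE, limma adjusted p = 0.99), with values from −0.38 (wild type replicate 2 left out) to 0.34 (wild type replicate 1 left out). Exons of Bricd5 on the opposite strand overlap 22.5% of its 4435 exonic bases in GENCODE, where the length behind its RPKM was 3366.

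**Figure D2:**
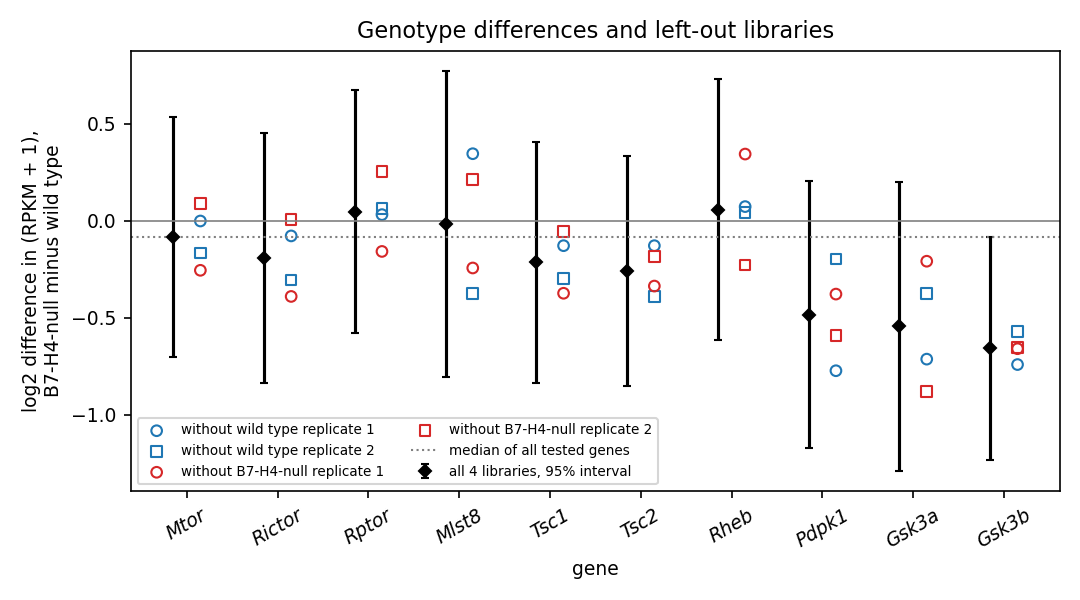
Log2 difference in (RPKM + 1), B7-H4-null minus wild type, for each of the 10 genes: black diamonds with 95% intervals from limma use all 4 libraries, open symbols leave out 1 library, and the dotted line is the median of all tested genes (−0.09). The interval of Gsk3b (−1.23 to −0.08) is the 1 that does not reach 0, and the open symbols of Mtor, Rictor, Rptor, Mlst8 and Rheb fall on both sides of 0.

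Replicates of a genotype differed by more than read counting gives. The ratio of replicate 1 to replicate 2, with its exact 95% binomial interval on the reads, left 1 for 8 of 10 genes in wild type and for 9 of 10 in B7-H4-null. Such intervals cover counting error only and rest on the totals behind the RPKM. How many of all tested genes leave 1 in this way was not counted. The widest gaps were Mlst8 in wild type, 694 against 399 reads or 1.70 times the RPKM (interval 1.50 to 1.93), and Gsk3a in B7-H4-null, 636 against 1177 reads or 0.62 times (interval 0.562 to 0.684). The exceptions were Rptor and Rheb in wild type and Gsk3b in B7-H4-null. At 368 to 1412 reads per gene and library, the spread between samples and not the depth limits these comparisons. B7-H4-null replicate 2 was the lowest of the 4 libraries for 6 genes (Mtor, Rictor, Rptor, Tsc1, Tsc2 and Gsk3b) and the highest for Rheb. B7-H4-null replicate 1 was the lowest for 3, Rheb, Pdpk1 and Gsk3a. Wild type replicate 2 was the lowest for Mlst8. How many of all tested genes are lowest in each library was not counted, and such counts depend on the scaling between libraries.

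By level per gene length, averaged over the 4 libraries, Gsk3a (47.6 RPKM) and Rheb (39.3 RPKM) stood at the top. They were followed by Mlst8 (15.9 RPKM), Tsc2 (14.4 RPKM), Pdpk1 (13.6 RPKM), Gsk3b (9.15 RPKM), Rptor (8.48 RPKM), Mtor (7.50 RPKM), Rictor (7.23 RPKM) and Tsc1 (5.57 RPKM). Gsk3a and Rheb were not ordered beyond their spread, with Gsk3a above in 2 of 4 libraries, but all libraries of Rheb lay above all of Mlst8. Every other pair of neighbours overlapped in range, although Pdpk1 stood above Gsk3b and Rictor above Tsc1 in 4 of 4 libraries. Among all tested genes these means run from percentile 27.7 (Tsc1) to 82.6 (Gsk3a). The order rests on the gene lengths behind the authors' RPKM, which came out of the values as 1521 bases for Rheb and 2259 for Gsk3a but 8595 for Mtor and 9314 for Rictor.

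Ratios within a library do not depend on scaling between libraries, so 3 pairs of partners were compared in that way. Rictor stood to Rptor, the mTORC2 to the mTORC1 subunit, at 1.03 and 0.844 in wild type and at 0.773 and 0.774 in B7-H4-null. Both B7-H4-null ratios were lower than both wild-type ratios, by 0.27 on the log2 scale (−0.27, exact permutation test, two-sided, p = 0.333). That is the smallest p that 2 against 2 samples can give, so the test cannot pass. Leaving out wild type replicate 1 gave −0.13, and leaving out wild type replicate 2 gave −0.42.

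Tsc1 to Tsc2, the paired subunits of the brake on RHEB, kept a narrow range: 0.372 and 0.393 in wild type against 0.419 and 0.36 in B7-H4-null. The B7-H4-null ratios enclosed the wild-type ratios (log2 difference 0.023, exact permutation p = 1). Gsk3a exceeded Gsk3b in every library, 4.63 and 5.18 times in wild type and 4.34 and 7.03 times in B7-H4-null. B7-H4-null replicate 2 stood apart as the highest, and replicate 1 was the lowest (log2 difference 0.17, exact permutation p = 1). With p adjusted over the 3 ratios none could pass.

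**Figure D3:**
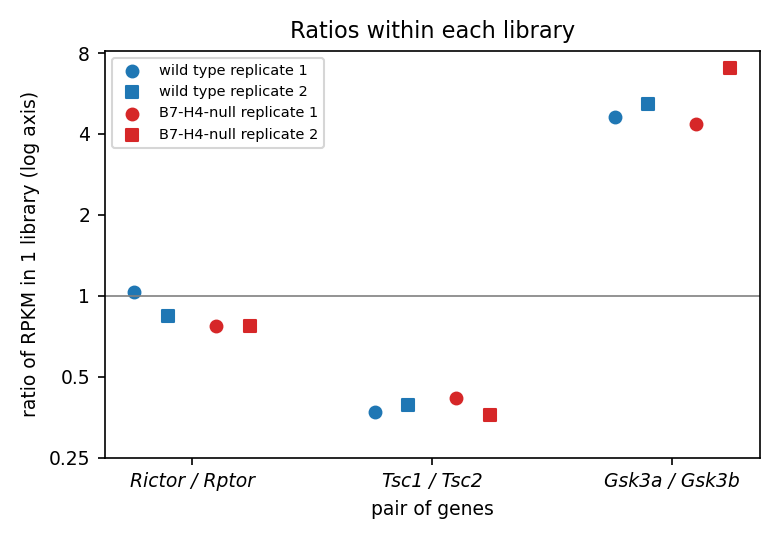
Ratio of the RPKM of 2 genes within each library (log axis), with wild type in blue, B7-H4-null in red, circles for replicate 1 and squares for replicate 2. Rictor to Rptor reads 0.773 and 0.774 in B7-H4-null, under 0.844 and 1.03 in wild type, while the other ratios overlap between genotypes.

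Some of the members also lie close together, which was not used to choose them. Pdpk1, Mlst8 and Tsc2 lie within 559 kb of each other on chromosome 17, from 24073680 to 24632676. Their log2 differences were −0.49, −0.02 and −0.26, and in wild type replicate 1 was the higher for Mlst8 and Tsc2 and the lower for Pdpk1. The member with the widest range over the 4 libraries was Gsk3a (1.05 on the log2 scale). Derl1, Spin1 and Yipf5 had the profiles most like it, at root-mean-square distances of 0.0137, 0.0151 and 0.0245 log2 units over 4 libraries. Derl1, for example, had 45.7 and 58.03 RPKM in wild-type cells and 28.2 and 44.7 RPKM in B7-H4-null cells. This likeness over 4 points is a description only.

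Around the 10 genes, 9 lists of pathway genes were read, 108 genes of which 95 were tested. None passed (limma, adjusted over all tested genes), and before adjustment, at p under 0.05, 2 were higher and 4 lower (Prkcb, Inppl1, Inpp4a, Fnip1), against 5.05% and 7.2% of all tested genes. Both B7-H4-null libraries lay below both wild-type libraries for 34 of the 95 and above for 10, where 28.0% and 16.0% of all tested genes did. These all-gene shares also stand beside the counts of each list below. The median log2 difference over the 95 was −0.17. After median-ratio scaling the shares of all tested genes were 22.2% below and 22.1% above, so the lean of all genes toward lower values depends on scaling.

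Upstream, phosphoinositide 3-kinase (PI3K) makes the lipid that recruits PDK1 and AKT. Of 12 tested PI3K subunits 4 were lower and 1 higher in both null libraries, with a median log2 difference of −0.23. Pik3cd, the p110δ catalytic subunit of leukocytes, had 63.9 and 70.3 RPKM in wild-type cells against 42.0 and 49.1 RPKM in B7-H4-null cells, a log2 difference of −0.55 (limma adjusted p = 0.434). Pik3c2b had 1.37 and 1.04 against 0.696 and 0.455 RPKM, and Pik3ca, the p110α subunit, 6.24 and 6.56 against 4.64 and 4.75 RPKM (limma adjusted p = 0.551 and 0.582).

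Phosphatases and other brakes on this lipid signal had the lowest median of the 9 lists, −0.58 over 7 tested genes. In both null libraries 4 were lower and 0 higher, where 28.0% and 16.0% of all tested genes were. Inppl1, the 5-phosphatase SHIP2, had 11.4 and 11.3 RPKM in wild-type cells against 6.25 and 6.24 RPKM in B7-H4-null cells, with replicates close in both genotypes (log2 difference −0.77, limma adjusted p = 0.32). Inpp4a, a 4-phosphatase, had 9.82 and 11.3 against 6.59 and 5.03 RPKM (−0.77, limma adjusted p = 0.334). Phlpp1, a phosphatase of AKT itself, had 1.37 and 1.50 against 0.539 and 0.682 RPKM (limma adjusted p = 0.438).

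AKT and related AGC kinases were 6 lower and 1 higher in both null libraries out of 9 tested, with a median of −0.20. Of all tested genes 28.0% were lower and 16.0% higher in this way. Akt1, by far the more abundant AKT gene here, had 195 and 224 RPKM in wild-type cells against 121 and 165 RPKM in B7-H4-null cells, and Akt2 had 14.9 and 17.3 against 8.55 and 13.1 RPKM (limma adjusted p = 0.482 and 0.493). Prkcb, a protein kinase C gene, had 33.8 and 26.8 against 14.8 and 13.9 RPKM (log2 difference −1.02, limma adjusted p = 0.25).

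Further mTOR complex and TSC subunits and their chaperones had 2 lower and 2 higher of 8 tested, with a median of −0.04. Prr5, protor-1 of mTORC2, had 4.83 and 8.06 RPKM in wild-type cells against 8.22 and 16.5 RPKM in B7-H4-null cells, and Akt1s1, the mTORC1 inhibitor PRAS40, 23.4 and 23.5 against 17.8 and 19.01 RPKM (limma adjusted p = 0.469 and 0.609). Telo2, a chaperone that stabilises mTOR, had 14.6 and 7.93 against 15.1 and 15.7 RPKM (limma adjusted p = 0.603).

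The branch that reports amino acids to mTORC1 at the lysosome, Rag GTPases, Ragulator and folliculin, had 3 lower and 1 higher of 11 tested, with a median of −0.26. Fnip1, the folliculin partner, had 24.4 and 20.8 RPKM in wild-type cells against 14.4 and 11.4 RPKM in B7-H4-null cells (log2 difference −0.77, limma adjusted p = 0.333). Rragc had 42.7 and 63.1 against 31.2 and 45.2 RPKM, and Lamtor3, a Ragulator subunit, 17.2 and 21.6 against 12.9 and 16.8 RPKM (limma adjusted p = 0.603 and 0.625). The GATOR, KICSTOR and nutrient sensor genes, which gate the Rag GTPases, were the list with a median above 0, at 0.10, with 2 lower and 0 higher of 14 tested. Sesn1, a leucine-responsive sestrin, had 10.5 and 8.77 against 7.63 and 6.76 RPKM, Kptn 14.05 and 5.55 against 13.8 and 14.1 RPKM, and Mios 17.5 and 13.4 against 13.4 and 12.2 RPKM (limma adjusted p = 0.594, 0.603 and 0.735).

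Energy and stress inputs had 5 lower and 2 higher of 9 tested, against 28.0% and 16.0% of all tested genes, with a median of −0.26. Ddit4 (REDD1), a stress-induced inhibitor of mTORC1, had 21.5 and 26.9 RPKM in wild-type cells against 212.6 and 38.7 RPKM in B7-H4-null cells (log2 difference 1.88 ± 0.708, SE, limma adjusted p = 0.369). B7-H4-null replicate 1 stood far above the other 3 libraries, as it did for the summed immediate early genes. Sgk1, an AGC kinase chosen for mention after its values were seen, had 88.5 and 12.8 against 447.5 and 50.5 RPKM, again highest in that library. Prkab1 and Prkag1, subunits of AMPK, had 37.97 and 39.6 against 30.2 and 26.3 RPKM and 100.6 and 117.9 against 77.1 and 83.3 RPKM (limma adjusted p = 0.516 and 0.542).

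Downstream, mTORC1 outputs had 4 lower and 3 higher of 16 tested, with a median of −0.10, close to that of all genes. Ulk1 and Atg13, which start autophagy, had 17.5 and 16.9 against 14.1 and 7.24 RPKM and 17.96 and 15.4 against 12.4 and 11.9 RPKM (limma adjusted p = 0.465 and 0.542). Eif4ebp2, a repressor of cap-dependent translation, had 59.4 and 92.2 against 45.8 and 57.8 RPKM (limma adjusted p = 0.558). The partners of GSK3 in β-catenin turnover had 4 lower and 0 higher of 9 tested, with a median of −0.29. All tested genes gave 28.0% lower and 16.0% higher. Apc, a scaffold of the destruction complex, had 6.92 and 6.13 RPKM in wild-type cells against 4.52 and 3.36 RPKM in B7-H4-null cells, and Fbxw11, which reads the GSK3 mark for ubiquitination, 29.4 and 31.4 against 18.4 and 23.5 RPKM (limma adjusted p = 0.417 and 0.469). Frat1, a GSK3-binding protein, had 8.49 and 12.4 against 6.30 and 7.78 RPKM (limma adjusted p = 0.542).

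**Figure D4:**
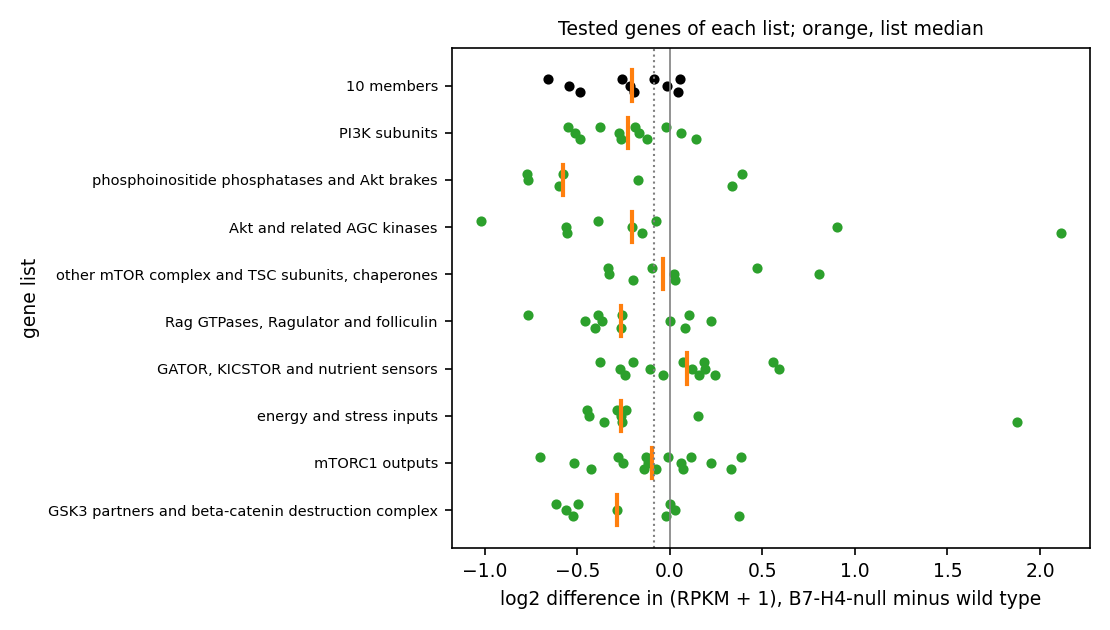
Log2 difference in (RPKM + 1), B7-H4-null minus wild type, of the 10 genes (black) and of the tested genes of the 9 pathway lists (green), with list medians in orange and the median of all tested genes as a dotted line. No point passed the test; the phosphatases have the lowest median (−0.58), and Ddit4 (1.88) and Sgk1 (2.11) are the farthest to the right.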

How the data were processed

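RNA was measured by sequencing with the TruSeq RNA version 2 kit on a HiSeq2500, per the labels' protocols. The submitters' processing notes name TopHat2 2.0.12 and the build GRCm38, and the counting program, annotation and strand setting were not stated there. The authors deposited 1 table of RPKM (reads per kilobase of gene and per total reads of the library), 1 column per library, a unit taken from the values. Symbols and coordinates came from an NCBI table of GRCm38.p6, which matched 25275 of 27179 Entrez IDs. Exon overlap came from GENCODE. Steps between low values gave each library's total, and with it whole reads for 14608 of the 14608 genes above 0 in every library (within 0.001 read, a tolerance widened in proportion for larger counts, and at most 0.0699 read). Genes that reached 1 RPKM in at least 2 libraries were fitted with limma 3.58.1 (R 4.3.3) on log2(RPKM + 1), a scale that understates changes of low genes, with genotype as sole term, a trend of variance with level and Benjamini-Hochberg adjustment over all tested genes. A check of the fit on simulated reads required only the right direction, for changes larger than those of the members. It set no bar on power or false calls. All 10 members were named. Of each pathway list, the 3 tested genes with the smallest p were named, with Akt1 and Akt2 added in any case. A few genes that this rule names are not reported here. Members and lists were chosen with earlier results of these data known. Alternatives changed the pseudocount, filter, scaling, trend, block and test, and left out each library.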

Additional observations from a re-analysis of the deposited data

How the results depend on the processing

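The count of called members was 0 under all 12 alternatives, with the replicate block, limma-voom on recovered reads and every left-out library among them, and their median log2 difference stayed below 0 (−0.30 to −0.10 over the left-out libraries). The median of all tested genes was also below 0 with 1 library left out. Without wild type replicate 1 it was −0.10, as for the members, and without B7-H4-null replicate 2 −0.14 against −0.12 for the members. Without wild type replicate 2 it was −0.07 against −0.30, and without B7-H4-null replicate 1 −0.03 against −0.30. Gsk3b, Gsk3a, Pdpk1, Tsc2 and Tsc1 stayed below 0 in 12 of 12. The changes of filter, trend and block cannot move these differences, and all alternatives reuse the same libraries. Mtor turned to 0.0074 and Mlst8 to 0.081 after median-ratio scaling, and to 0.020 and 0.065 after quantile normalization. Leaving out 1 library gave ranges of −0.26 to 0.087 for Mtor, −0.39 to 0.0053 for Rictor, −0.16 to 0.25 for Rptor, −0.38 to 0.34 for Mlst8 and −0.23 to 0.34 for Rheb. The log2 ratio differences ranged from −0.085 to 0.13 for Tsc1 to Tsc2 and from −0.17 to 0.52 for Gsk3a to Gsk3b. Members with genotypes apart numbered 3 in the lower and 0 in the higher direction after either scaling. All tested genes gave 22.2% and 22.1% after median-ratio scaling, and 25.5% and 19.1% after quantile normalization. With 1 library left out the members apart numbered 4 to 8 and 0 to 2, where 1 library against 2 overlaps less by construction. Dropping wild type replicate 2 gave 7 lower members and dropping B7-H4-null replicate 1 gave 8, beside 39.6% and 38.5% of all tested genes. Dropping wild type replicate 1 gave 4 and dropping B7-H4-null replicate 2 gave 5, beside larger shares of 44.4% and 49.8%. The 0 to 2 higher members stand beside 25.6% to 33.6%. Over all genes 12 were called, against 0 with no filter on low values or without either B7-H4-null library, 56 and 29 without wild type replicate 1 and 2, and 10 to 21 under the other alternatives, 21 with the replicate block; deviations of same-numbered libraries correlated at 0.247 over genes, and the numbers are not said to pair samples. A lone library was assumed to vary like the others. Depth limits Vtcn1 and other genes near 1 read, not the 10 members.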
